A study of Homo sapiens with 38 samples.

Results

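The 10 genes described here were LDHA, PGK1, ENO1, SLC2A1, CA9, VEGFA, ADM, NDRG1, BNIP3 and PDK1, which are widely used as readouts of hypoxia and of the glycolysis that accompanies it. They were chosen by symbol, and each of the 10 symbols matched 1 entry among the 25504 uniquely named genes of the expression table. Expression was given as FPKM (fragments scaled to transcript length and to the number of mapped fragments). Of the 10 genes, 8 averaged 1 FPKM or more and were treated as expressed, as were 10865 genes in all. BNIP3 and CA9 stayed below that level and are described by their FPKM alone.

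RNA was measured in RKO, an established human colorectal cancer cell line, in 8 libraries of a series of 38 samples, and the 30 chromatin immunoprecipitation samples were not analysed here. Cells received the vehicle DMSO, the LSD1 inhibitor NCD38, or NCD38 joined through 2 β-alanine units to a pyrrole-imidazole polyamide, namely NCD38-β2P4 (Py-Py-Py-Py) or NCD38-β2PIPP (Py-Im-Py-Py). LSD1 is a histone demethylase that removes methyl groups from lysine 4 of histone H3, and such polyamides bind the minor groove of DNA in a sequence-dependent manner. Each inhibitor was given at 2 µM in 0.1% DMSO for 4 or 30 days per the labels, while the study's methods state a millimolar dose for day 4. The vehicle was given for the same times. Medium was refreshed every 5 days, a schedule that could reach only the 30-day cultures. There was 1 library in each of the 8 conditions, from cells of 1 line, so no condition had a replicate. The comparisons asked whether an inhibitor changed the 10 genes against DMSO of the same day, whether the 3 inhibitors differed from each other, and whether the 10 genes differed between the days.

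In cells short of oxygen, the prolyl hydroxylases (EGLN proteins) no longer mark HIF-1α for recognition by VHL and for degradation, and HIF-1α pairs with ARNT to switch on target genes. The pair binds hypoxia response elements, whose core is ACGTG or GCGTG. Its targets move a cell toward glycolysis: SLC2A1 (GLUT1) brings glucose in, PGK1 and ENO1 act in the pathway's ATP-yielding stages, LDHA turns pyruvate into lactate, and PDK1 holds pyruvate back from mitochondria. Other targets serve the surroundings of the cell or its own stress response, such as the angiogenic factor VEGFA, the vasodilator peptide ADM, the carbonic anhydrase CA9, the mitophagy receptor BNIP3 and the stress-response protein NDRG1. Many cancer cell lines also keep glycolysis high with oxygen present. No label described a change of oxygen, so all 8 libraries stand for ordinary culture as far as the labels say.

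The libraries held an estimated 12300000 to 22400000 fragments, and their FPKM summed to 677739 to 822230. The NCD38 library of day 4 stood apart, with a median log2(FPKM + 1) over expressed genes of 2.71, against 3.11 to 3.45 in the other 3 libraries of day 4. Of 5 epithelial markers, KRT8, KRT18 and EPCAM reached 1 FPKM, with KRT18 at 76.2 to 121, while KRT19 and CDH1 stayed at or below 0.467 and 0.0642. EPCAM differed by day, at 3.94 to 6.53 FPKM on day 30 and 0.0922 to 0.867 on day 4, and its part in the results was not tested. None of 3 immune, 3 endothelial and 3 fibroblast markers reached 1 FPKM, and their summed levels were at most 0.0801, 0.0152 and 0.0270. The libraries are bulk samples, in which fewer cells of a type and less RNA per cell cannot be told apart.

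The promoters of PGK1 and ENO1, the 2 members with the largest day differences, of ADM, which moved the other way, and of BNIP3, which was barely detected, are shown for the hypoxia response element cores they carry. Each window runs from 250 bases before to 50 after a RefSeq transcription start in GRCh38.p14, 5′ to 3′ on the gene's strand. Capitals mark ACGTG or GCGTG or their reverse complements CACGT and CACGC, and CACGTG is a core on both strands.
PGK1 (chrX:78103998-78104297, + strand): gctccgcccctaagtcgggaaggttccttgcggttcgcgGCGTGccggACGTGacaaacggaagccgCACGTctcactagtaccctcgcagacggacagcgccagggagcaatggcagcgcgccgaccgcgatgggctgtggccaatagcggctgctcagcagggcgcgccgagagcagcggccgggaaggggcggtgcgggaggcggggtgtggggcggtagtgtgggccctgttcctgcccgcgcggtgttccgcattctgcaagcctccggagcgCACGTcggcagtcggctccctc
ENO1 (chr1:8878637-8878936, - strand): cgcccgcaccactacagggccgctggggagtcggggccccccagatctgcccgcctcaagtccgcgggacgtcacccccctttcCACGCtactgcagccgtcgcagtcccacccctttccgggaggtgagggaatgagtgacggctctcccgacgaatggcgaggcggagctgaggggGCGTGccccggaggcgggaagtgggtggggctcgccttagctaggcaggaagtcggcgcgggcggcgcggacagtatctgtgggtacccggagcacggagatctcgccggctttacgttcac
ADM (chr11:10304823-10305122, + strand): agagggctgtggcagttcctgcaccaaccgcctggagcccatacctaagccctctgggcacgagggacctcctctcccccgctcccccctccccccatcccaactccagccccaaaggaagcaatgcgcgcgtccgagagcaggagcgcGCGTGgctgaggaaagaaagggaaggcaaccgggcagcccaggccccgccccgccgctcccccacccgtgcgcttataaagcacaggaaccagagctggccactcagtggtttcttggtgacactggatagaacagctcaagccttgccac
BNIP3 (chr10:131981874-131982173, - strand): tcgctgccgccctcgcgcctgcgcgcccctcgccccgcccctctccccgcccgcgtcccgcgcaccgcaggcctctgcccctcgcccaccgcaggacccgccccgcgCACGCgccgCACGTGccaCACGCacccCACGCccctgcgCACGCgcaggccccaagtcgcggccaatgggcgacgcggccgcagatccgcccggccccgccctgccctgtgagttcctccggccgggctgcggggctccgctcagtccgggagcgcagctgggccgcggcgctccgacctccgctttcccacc

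The PGK1 window held 4 cores, the ENO1 window 2, the ADM window 1 and the BNIP3 window 6, counted on both strands. A window was kept for 8 of the 10 genes, in 10 windows since LDHA and PDK1 had 2 each. VEGFA had no window, and NDRG1 was not examined because member windows on chromosome 8, where it lies, were left out. Every one of the 8 genes had a core in at least 1 window, and 9 of the 10 windows held one, compared with 48.4% of the 35116 RefSeq windows of this length. ACGTG alone stood in 21.4% and GCGTG in 36.5% of all windows. The first LDHA window held 6 cores, and the PDK1 windows held 0 and 2. A run of 6 A or T bases, the kind of sequence that NCD38-β2P4 was designed to bind, stood in 3 of the 10 windows and in 61.2% of all windows. A CG between 2 A or T bases on each side, the kind for NCD38-β2PIPP, stood in 1 of the 10, that of ENO1, and in 15.9% of all. Both cores hold a CG, and the background was not matched for GC content. The PDK1 window without a core had 36.3% GC, and the others had 62% to 80.7%. The shares therefore cannot be read as an excess or a lack particular to these genes. These matches describe letters in a window and are not sites of binding.

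On the FPKM scale, which is per length of transcript, the members spanned from ENO1 at 573 to 2513 down to CA9 at 0 to 0.119. On day 30 the order of mean level was ENO1, LDHA, PGK1, SLC2A1, ADM, VEGFA, NDRG1, PDK1, BNIP3 and CA9. The ranges of SLC2A1 and ADM overlapped there, as did those of ADM, VEGFA and NDRG1, so the order among these neighbours was within their spread over the 4 libraries. On day 4 PGK1 (316 to 363 FPKM) stood above LDHA (153 to 254 FPKM) without overlap, whereas on day 30 LDHA (149 to 209 FPKM) stood above PGK1 (56.8 to 91.0 FPKM). NDRG1 stood above VEGFA and ADM on day 4, and the ranges of the latter 2 genes overlapped.

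**Figure D1:**
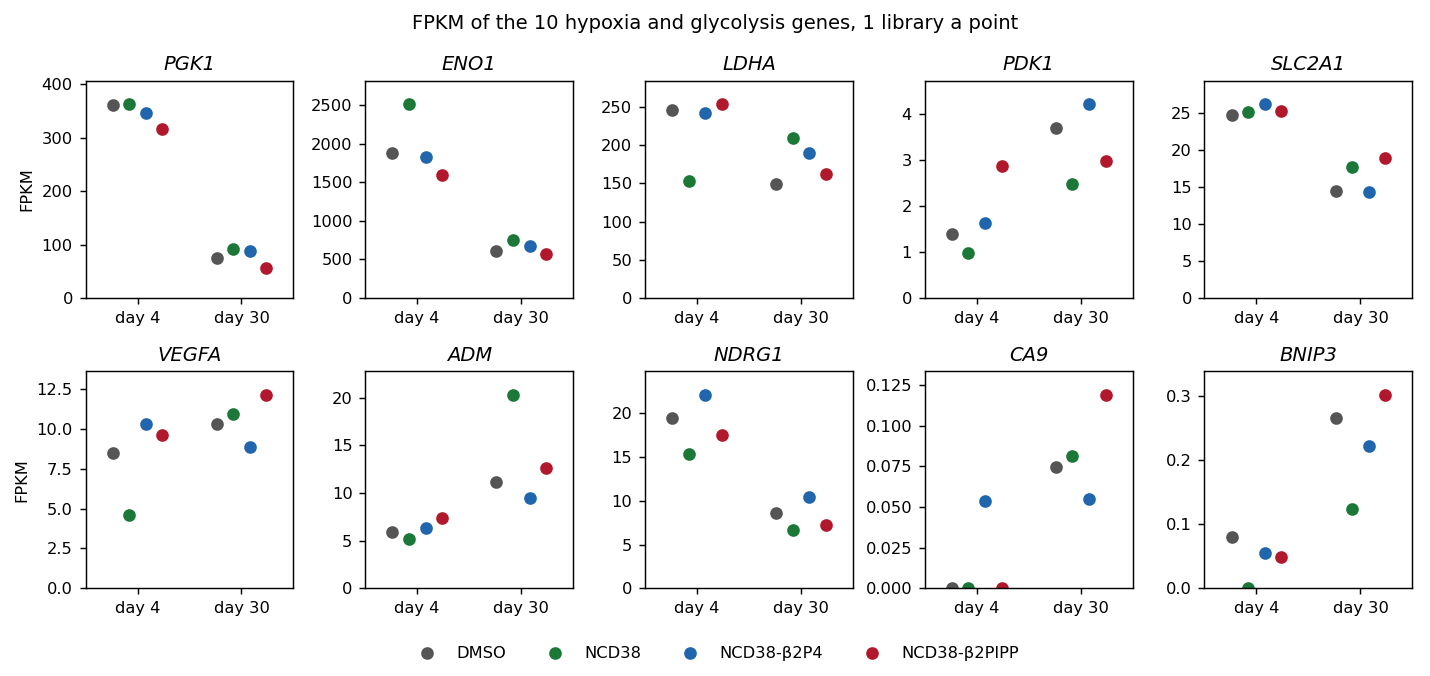
FPKM (vertical axes, linear, starting at 0 and scaled to each gene) of the 10 genes on day 4 and day 30, with 1 point for each library and 1 colour for each treatment. PGK1, ENO1, SLC2A1 and NDRG1 were lower in all 4 libraries of day 30 than in any of day 4, ADM was higher, and CA9 and BNIP3 stayed at or below 0.302.

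Among the 10 genes, PGK1 and ENO1 differed most between the days, and both were lower on day 30 under every treatment. PGK1, phosphoglycerate kinase, lies on chromosome X, + strand. Its GENCODE gene record spans 77166236 to 77384792 in GRCh37, and the 11 exons are those of 1 transcript, which need not fill that span. On day 30 PGK1 was measured at 74.6 FPKM in the DMSO library, 91.0 in the NCD38 library, 87.7 in the NCD38-β2P4 library and 56.8 in the NCD38-β2PIPP library. On day 4 the values in the same order were 362, 363, 346 and 316 FPKM. The days did not overlap, with means of 77.5 ± 15.5 (SD, n = 4) on day 30 and 347 ± 21.8 (SD, n = 4) on day 4, a level 4.47-fold higher on day 4. In an additive limma fit of day and treatment over the 8 libraries, the difference in log2(FPKM + 1) of day 30 minus day 4 was -2.17 (SE 0.12, 95% interval -2.48 to -1.86, adjusted p = 0.000399), below that of all but 1.47% of expressed genes.

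ENO1, enolase 1 (GRCh37, chromosome 1, 8921059 to 8939249, - strand, 12 exons), had 613 (DMSO), 758 (NCD38), 676 (NCD38-β2P4) and 573 FPKM (NCD38-β2PIPP) in the libraries of day 30. On day 4 it had 1884, 2513, 1833 and 1601 FPKM in that order. Within both days the NCD38 library was the highest and the NCD38-β2PIPP library the lowest. The level was 2.99-fold higher on day 4, without overlap, and the fitted difference was -1.57 (SE 0.11, limma adjusted p = 0.000455).

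LDHA, the lactate dehydrogenase subunit that favours lactate formation (GRCh37, chromosome 11, 18416107 to 18429972, + strand, 8 exons), had 149, 209, 190 and 162 FPKM on day 30 and 247, 153, 243 and 254 on day 4, in the order DMSO, NCD38, NCD38-β2P4, NCD38-β2PIPP. The NCD38 library was the highest of day 30 and the lowest of day 4. The days overlapped because that of day 4, at 153 FPKM, fell within the range of day 30, 149 to 209 FPKM. The fitted day difference of -0.32 (SE 0.22) did not pass the test (limma adjusted p = 0.247). Without the NCD38 library of either day it was -0.57 (limma adjusted p = 0.00975 without that of day 4 and 0.00861 without that of day 30). The estimate is the same by construction, because the remaining NCD38 library then informs only its treatment term. LDHA, PGK1 and ENO1 have processed pseudogenes in the genome, and how the study's counting split reads among such copies was not examined, so their levels are uncertain to that extent.

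PDK1, the kinase that inactivates pyruvate dehydrogenase (GRCh37, chromosome 2, 173420101 to 173473397, + strand, 11 exons), was the least abundant of the 8 expressed members. It had 3.69, 2.49, 4.21 and 2.97 FPKM on day 30 and 1.38, 0.974, 1.63 and 2.88 on day 4, in the same order of treatments. The NCD38 library was the lowest on both days, and the NCD38-β2PIPP library of day 4 reached into the range of day 30. The fitted day difference was 0.71 (SE 0.22, limma adjusted p = 0.0341), higher on day 30, but it did not pass without any 1 of the DMSO, NCD38 or NCD38-β2P4 libraries (adjusted p between 0.0719 and 0.147).

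SLC2A1, the glucose transporter GLUT1 (GRCh37, chromosome 1, 43391024 to 43424564, - strand, 10 exons), had 14.4, 17.7, 14.4 and 18.9 FPKM on day 30 and 24.7, 25.1, 26.2 and 25.3 on day 4. The libraries of day 4 lay close together, within 1.06-fold, and all were above those of day 30. The fitted difference was -0.61 (SE 0.13, limma adjusted p = 0.0101), and the level was 1.55-fold higher on day 4. It did not pass without any 1 of the DMSO or NCD38-β2P4 libraries (adjusted p between 0.0639 and 0.0719).

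Of the secreted factors, ADM was higher on day 30 and VEGFA did not pass the test. ADM, the adrenomedullin precursor (GRCh37, chromosome 11, 10326620 to 10328944, + strand, 4 exons), had 11.2, 20.3, 9.50 and 12.7 FPKM on day 30 and 5.87, 5.22, 6.30 and 7.38 on day 4, in the order DMSO, NCD38, NCD38-β2P4, NCD38-β2PIPP. The NCD38 library of day 30 was the highest, and no library of day 4 reached the lowest of day 30. The fitted difference was 0.96 (SE 0.24, limma adjusted p = 0.0177), and it did not pass without either DMSO library (adjusted p = 0.0724 and 0.0720). VEGFA, the vascular endothelial growth factor (GRCh37, chromosome 6, 43737921 to 43754224, + strand, 8 exons), had 10.3, 10.96, 8.89 and 12.1 FPKM on day 30 and 8.48, 4.61, 10.3 and 9.65 on day 4. The days overlapped, the NCD38 library of day 4 was the lowest, and the fitted difference was 0.37 (SE 0.23, limma adjusted p = 0.222).

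NDRG1, a protein that accumulates under several stresses (GRCh37, chromosome 8, 134249418 to 134314265, - strand, 16 exons), had 8.58, 6.70, 10.4 and 7.25 FPKM on day 30 and 19.5, 15.4, 22.1 and 17.5 on day 4. Both days had the same order of treatments, with NCD38-β2P4 the highest, then DMSO, NCD38-β2PIPP and NCD38. The level was 2.26-fold higher on day 4, without overlap, and the fitted difference was -1.09 (SE 0.12, limma adjusted p = 0.00112).

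BNIP3 (GRCh37, chromosome 10, 133781188 to 133795471, - strand, 6 exons) was listed at 0.266, 0.124, 0.222 and 0.302 FPKM on day 30 and at 0.0797, 0, 0.0546 and 0.0493 on day 4. These levels stood for an estimated 3.24 to 10.4 fragments per library on day 30 and 0 to 2.18 on day 4. On day 4 every library lay under the FPKM that 3 fragments would give, 0.109 to 0.151. CA9 (GRCh37, chromosome 9, 35673925 to 35681156, + strand, 11 exons) was listed at 0.0748, 0.0812, 0.0547 and 0.119 FPKM on day 30, and on day 4 it was at 0 in 3 libraries and at 0.0537 with NCD38-β2P4. Its fragments were estimated at 9.44 over the 4 libraries of day 30 and 1.07 over those of day 4. CA9, a plasma membrane enzyme that is a classical marker of HIF activity, and BNIP3 were thus at or near the limit of detection, and no fold was computed for them.

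Between the days, 6 of the 8 expressed members passed the test, 4 lower on day 30 (PGK1, ENO1, SLC2A1, NDRG1) and 2 higher (ADM, PDK1). Among all expressed genes 61.9% passed, 3277 higher and 3445 lower on day 30. The libraries of the days did not overlap for 5 of the 8 members, 4 lower and 1 higher on day 30, and for 62.6% of all expressed genes. The members' shares, 6 of 8 and 5 of 8, give no sign of a result particular to them beside that background. Without the NCD38 library of day 4, 6 members also passed, with LDHA gained and PDK1 lost. The median difference was -0.46 over the members and -0.02 over all expressed genes. The labels name no batch of culture, collection or sequencing, so day cannot be told apart from any of these that the libraries of a day shared.

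**Figure D2:**
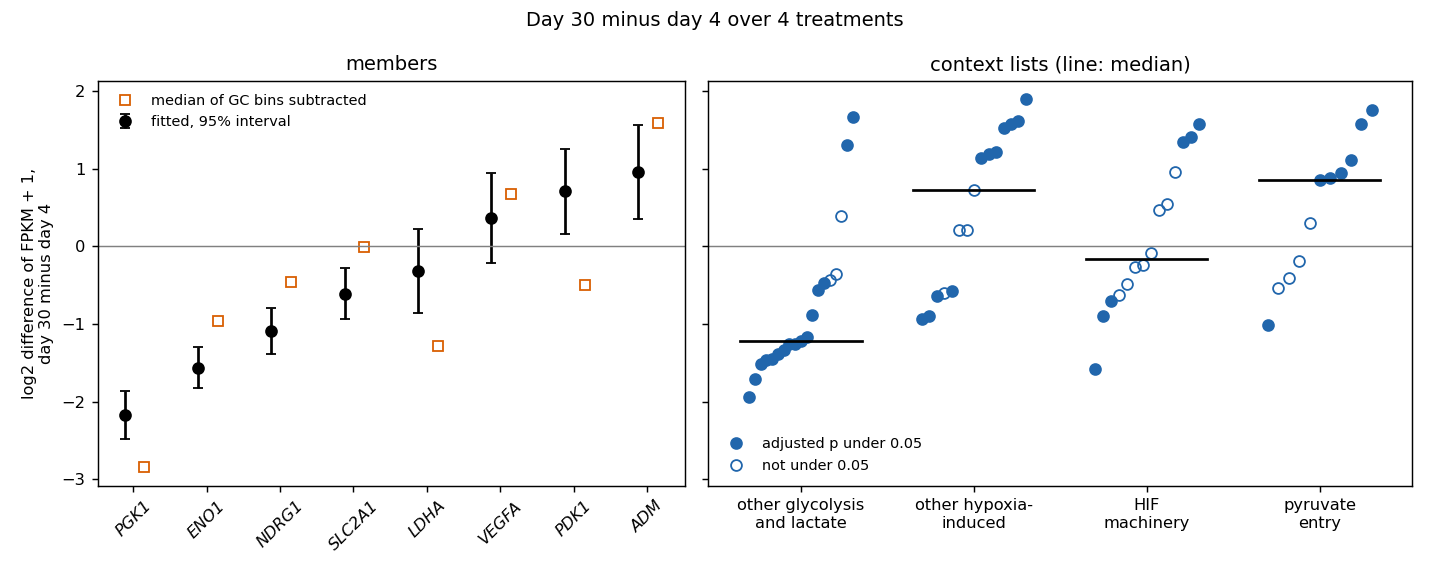
Fitted difference in log2(FPKM + 1) of day 30 minus day 4 for the 8 expressed members (left, points with 95% intervals from limma; open squares, the value after subtracting the median of genes of like GC content from each library) and for the expressed genes of 4 lists (right, filled where the adjusted p is under 0.05, line at the median). PGK1 at -2.17 and ENO1 at -1.57 lay lowest among the members, and the other glycolysis genes had a median of -1.21.

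The day difference moved with base composition. Across the 9868 expressed genes with a GENCODE transcript (90.8% of expressed genes), it had a Spearman correlation of -0.698 with GC content, as a description over genes that share the same 8 libraries. PGK1, whose transcript has 42.8% GC, was lower on day 30, while genes of like GC content had a median of 0.67. With the median of 20 GC bins subtracted from each library, the difference was -2.85 for PGK1, -0.97 for ENO1 (54.4% GC) and -0.46 for NDRG1 (54.9% GC), and all 3 passed the test (limma adjusted p = 1.87e-05, 0.000892 and 0.00712). ADM (55.4% GC) also passed, at 1.59 (adjusted p = 0.000386).

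The other members changed their call or their sign under this correction. SLC2A1, at -0.01 (limma adjusted p = 0.948), was at the level of genes of like GC content. PDK1, with 39.5% GC, turned from 0.71 to -0.50 (adjusted p = 0.0255), as genes of like GC content had a median of 1.17. That GC content is of a GENCODE transcript of 14072 bases, of which 1308 are coding. Whether the study's own gene model covered the same bases was not examined. LDHA passed at -1.28 (adjusted p = 0.000327) and VEGFA at 0.67 (adjusted p = 0.00818). Thus 7 of the 8 members passed after the correction, 5 lower and 2 higher on day 30, where 59% of the 9868 genes with a transcript passed. The day differences of PGK1, ENO1, NDRG1 and ADM passed with the same sign either way. Whether the correlation with GC content was technical was not tested.

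**Figure D3:**
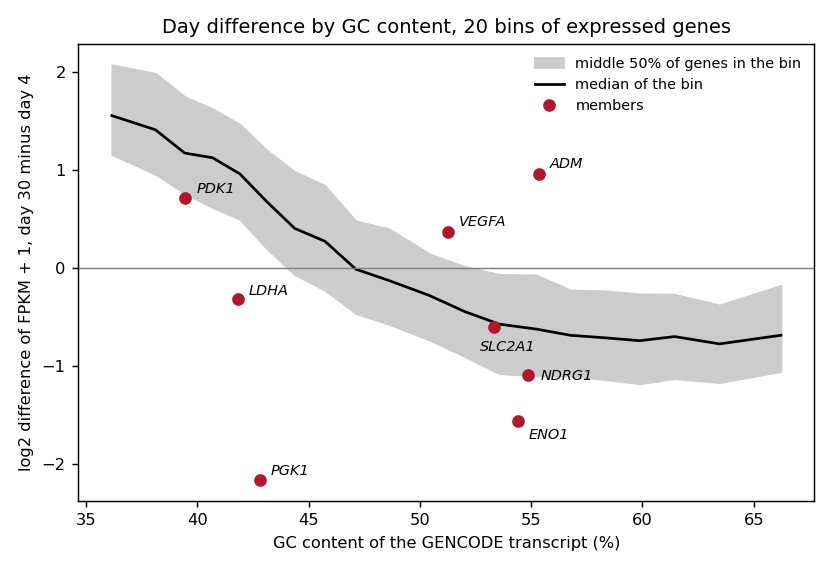
Fitted difference in log2(FPKM + 1) of day 30 minus day 4 (vertical axis) against the GC content of the transcript in percent (horizontal axis), with the median (line) and the middle 50% (band) of expressed genes in 20 bins, and the 8 expressed members as points. The bin median ran from 1.55 at the lowest GC content to -0.69 at the highest, PGK1 and LDHA lay far below the line, and ADM far above it.

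Other genes of the same pathways were counted in 4 lists by whether they passed the limma test between the days, which 61.9% of all expressed genes did, and 59% of those with a transcript after the GC correction. Of the other glycolysis and lactate genes, all 19 were expressed, 14 passed as lower and 2 as higher on day 30, and the median difference was -1.21. After the GC correction 12 passed as lower and 2 as higher, with a median of -0.58. PKM (listed as PKM2), which makes pyruvate, was at 455 to 734 FPKM on day 30 and 1833 to 2849 on day 4, with a difference of -1.94 (SE 0.10, limma adjusted p = 0.000341). PFKFB3, which makes the allosteric activator of phosphofructokinase, fell by 1.71 on the log2 scale (SE 0.26, adjusted p = 0.00312). LDHB, the lactate dehydrogenase subunit that favours pyruvate formation, went the other way, at 750 to 941 FPKM on day 30 and 89.7 to 533 on day 4 (difference 1.66, SE 0.39, adjusted p = 0.0142). GAPDH did not pass, at -0.36 (adjusted p = 0.104), and its sign turned to 0.36 after the GC correction. The corrected differences were -1.22 for PKM, -1.08 for PFKFB3 and 0.98 for LDHB.

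The other hypoxia-induced genes did not move one way. Of 20 listed, 15 were expressed, and 7 passed as higher and 4 as lower on day 30, beside the 61.9% of all expressed genes. The median was 0.72, or 0.09 after the GC correction, under which 5 of the 14 genes with a transcript passed as higher and 3 as lower, beside 59%. FAM162A, a mitochondrial protein gene, was at 151 to 161 FPKM on day 30 and 36.0 to 49.3 on day 4 (difference 1.89, SE 0.12, limma adjusted p = 0.000412). BNIP3L, the mitophagy receptor related to BNIP3, was higher by 1.61 (SE 0.16, adjusted p = 0.000840), at 5.00 to 6.07 FPKM on day 30 and 0.742 to 1.72 on day 4. MXI1, an antagonist of MYC, was higher by 1.57 (SE 0.21, adjusted p = 0.00189). After the GC correction the differences were 0.78 for FAM162A, 0.18 for BNIP3L and 1.16 for MXI1. BNIP3L and BNIP3 were at different levels in the same cells, BNIP3 not exceeding 0.302 FPKM.

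Of the genes of the HIF machinery, 14 of 17 were expressed, and 3 passed as higher and 3 as lower on day 30, beside 61.9% of all expressed genes. The median was -0.17, or 0.08 after the GC correction, under which 2 passed as higher and 4 as lower, beside 59%. EGLN2, an oxygen-sensing prolyl hydroxylase, was lower on day 30, at 17.1 to 25.8 FPKM against 54.9 to 71.2 on day 4 (difference -1.58, SE 0.11, limma adjusted p = 0.000448). CUL2 and RBX1, both parts of the ubiquitin ligase that VHL works with, were higher by 1.58 (SE 0.31, adjusted p = 0.00730) and 1.40 (SE 0.13, adjusted p = 0.000721). HIF1A itself did not pass, at 0.96 (SE 0.42, adjusted p = 0.0946), and EPAS1, HIF3A and EGLN3 were not expressed. After the GC correction the differences were -0.78 for EGLN2, 0.15 for CUL2 and 1.54 for RBX1, and that of HIF1A turned to -0.25.

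Of the genes for pyruvate entry to mitochondria, 11 of 12 were expressed, and 6 passed as higher and 1 as lower on day 30, with a median of 0.85, beside 61.9% of all expressed genes. After the GC correction 2 passed as higher and 4 as lower, with a median of -0.11, so the direction of the list's median turned with the correction. DLD, a shared subunit of the α-keto acid dehydrogenases, was higher by 1.76 (SE 0.43, limma adjusted p = 0.0163). PDP1, a phosphatase that activates pyruvate dehydrogenase against PDK1, was higher by 1.57 (SE 0.32, adjusted p = 0.00860), and PDHX, a component of the complex, by 1.11 (SE 0.32, adjusted p = 0.0287). The GC correction brought these 3 differences to 0.32, 0.37 and -0.01.

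Against DMSO of the same day, no inhibitor changed any of the 8 expressed members 2-fold on the log2(FPKM + 1) scale, in 48 ratios that ran from -0.76 to 0.80. With 1 library a condition there was no test, and 2-fold served as the threshold. On day 30, 2-fold changes were found in 1.66% of expressed genes after NCD38, 1% after NCD38-β2P4 and 1.17% after NCD38-β2PIPP. On day 4 they were found in 5.41%, 1.91% and 11.2%. Of the 48 ratios 28 were above 0 and 20 below, and 21 were larger than their 95% counting half-width. The half-width covers counting error only and rests on an estimated depth. It was computed for FPKM without the added 1, which shrinks ratios of low values. A ratio of a gene at low FPKM can therefore fall inside its half-width through the added 1 alone, and the 21 can miss such ratios.

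**Figure D4:**
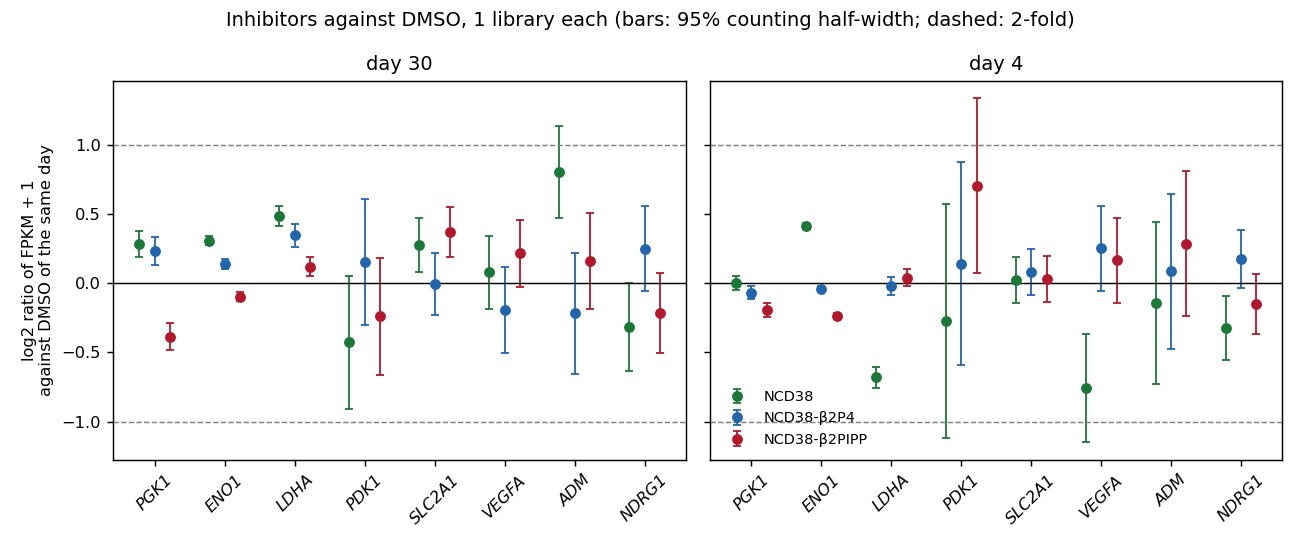
Log2 ratio of FPKM + 1 against same-day DMSO (vertical axis) for the 8 expressed members (horizontal axis) on day 30 (left) and day 4 (right), 1 library a point, with bars for the 95% counting half-width and dashed lines at 2-fold. The half-widths were computed for FPKM without the added 1. All 48 points lay between the dashed lines, and LDHA with NCD38 lay above 0 on day 30 and below 0 on day 4.

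On the uncorrected scale, the highest and the lowest of the 48 ratios were both with NCD38. After the GC bin medians were subtracted, the highest was still ADM with NCD38 on day 30, at 0.78, and the lowest was PGK1 with NCD38-β2PIPP on day 4, at -0.86. ADM with NCD38 on day 30 was 1.81-fold of DMSO in FPKM (20.3 against 11.2), a log2 ratio of 0.80 with a half-width of 0.33, above that of 98.3% of expressed genes. On day 4 the ratio of ADM was -0.14 with a half-width of 0.59. VEGFA with NCD38 was 0.543-fold of DMSO on day 4 (4.61 against 8.48 FPKM, log2 ratio -0.76, half-width 0.39, or -0.41 with the GC bin medians subtracted) and 0.08 on the log2 scale on day 30 (half-width 0.27). LDHA with NCD38 had a ratio of 0.49 on day 30 (half-width 0.07) and -0.68 on day 4 (half-width 0.08). Subtracting the GC bin medians left -0.15 for LDHA on day 4. ENO1 was above DMSO with NCD38 on both days, at 0.31 (half-width 0.03) and 0.42 (half-width 0.02). NDRG1 was below it on both, at -0.31 (half-width 0.32) and -0.32 (half-width 0.23). The day 4 value of NDRG1 depended on scaling, at 0.06 with libraries rescaled by median ratio and -0.28 with the GC bin medians subtracted. The median over the members was 0.28 on day 30 and -0.21 on day 4, beside 0.06 and -0.21 over all expressed genes.

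With NCD38-β2P4 the ratios of the members spanned the smallest range on either day, and they ran from -0.22 (ADM) to 0.34 (LDHA) on day 30 and from -0.07 (PGK1) to 0.25 (VEGFA) on day 4. With the GC bin medians subtracted, LDHA was at 0.18 on day 30 and PGK1 at -0.37 on day 4. NDRG1 was at 0.25 and 0.17 on the 2 days, within its half-widths of 0.31 and 0.21. The median over the members was 0.15 on day 30 and 0.08 on day 4, beside 0.06 and 0.09 over all expressed genes.

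With NCD38-β2PIPP, PGK1 was below DMSO on both days, at -0.39 (half-width 0.10) on day 30 and -0.20 (half-width 0.05) on day 4. With the GC bin medians subtracted these were -0.38 and -0.86. ENO1 was also below DMSO, at -0.10 (half-width 0.03) and -0.24 (half-width 0.02). SLC2A1 was above DMSO on day 30, at 0.37 (half-width 0.18), and at 0.03 (half-width 0.17) on day 4. PDK1 on day 4 was 2.09-fold of DMSO in FPKM (2.88 against 1.38) but 0.70 on the log2(FPKM + 1) scale (half-width 0.63), since the added 1 shrinks ratios of low values, and -0.12 after the GC bin medians were subtracted. The ratios to DMSO of expressed genes on day 4 had a Spearman correlation with GC content of -0.712 with NCD38-β2PIPP, -0.554 with NCD38-β2P4 and 0.606 with NCD38. The median over the members was 0.01 on day 30 and 0.04 on day 4, beside -0.01 and 0.17 over all expressed genes.

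In the pathway lists, no gene changed 2-fold in any of the comparisons of day 30, nor with NCD38-β2P4 on day 4. With NCD38 on day 4, SLC2A3, HK2, LDHB and DDIT4 were 2-fold lower, with log2 ratios of -1.15, -1.003, -1.34 and -1.43. Among all 10865 expressed genes, 493 were 2-fold lower in that comparison. With NCD38-β2PIPP on day 4, HIF1A was 2-fold higher, at 5.40 FPKM against 1.51 with DMSO (log2 ratio 1.35). CUL2, LDHB, SLC16A1, ERO1L, DLD, PDHX and PDP1 were also 2-fold higher there, at 1.18 to 1.63. So were 1122 of the 10865 expressed genes. With the GC bin medians subtracted, none of the list genes named here that had a transcript stayed at 2-fold, and HIF1A was at 0.52. LDHB moved in opposite directions in these 2 comparisons, which share the DMSO library: it had 229 FPKM in the DMSO library, 89.7 after NCD38 and 533 after NCD38-β2PIPP.

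The inhibitors were compared at the same labelled dose and the same days in the additive limma fit, with 2 libraries for each treatment and 3 residual degrees of freedom. None of the 8 members, and no gene of the 4 lists, passed in any of the 6 pairs of treatments. Among all expressed genes, 0.0368% passed between NCD38 and DMSO, 0.0184% between NCD38-β2P4 and DMSO, 0.0184% between NCD38-β2PIPP and DMSO, 0.0092% between NCD38-β2P4 and NCD38, 0.0184% between NCD38-β2PIPP and NCD38, and 0.0276% between the conjugates. At an unadjusted limma p under 0.05, 1 of the 8 members stood between NCD38-β2P4 and NCD38, beside 352 of the 10865 expressed genes. Between NCD38-β2PIPP and NCD38 it was 1 of 8, beside 692 of 10865. In the other 4 pairs there were 0 members, beside 32 to 145 expressed genes.

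The conjugates NCD38-β2P4 and NCD38-β2PIPP, whose polyamides differ by a pyrrole in place of an imidazole, were not shown to differ in any of the 8 members, with differences of -0.29 to 0.39 on the log2 scale and 95% intervals that reached from -1.15 to 0.84. On day 30 PGK1 had 87.7 FPKM with NCD38-β2P4 and 56.8 with NCD38-β2PIPP, a ratio of 1.54, and 346 and 316 on day 4, a ratio of 1.09. Against unconjugated NCD38, NDRG1 was 0.53 higher with NCD38-β2P4 (95% interval 0.10 to 0.96, limma adjusted p = 0.710), higher on both days. ENO1 was 0.53 lower with NCD38-β2PIPP (difference -0.53, 95% interval -0.90 to -0.15, limma adjusted p = 0.530), lower on both days. Neither passed the adjustment over all expressed genes. For each of the 3 pairs of inhibitors the widest interval among the members reached past 2-fold, so the fit does not show that the compounds act alike.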

How the data were processed

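RNA from 8 libraries of RKO cells was analysed, 1 for each of 4 treatments on 2 days. The authors prepared stranded mRNA libraries and deposited FPKM values, which are normalised to transcript length and mapped fragments and hold no counts. The study's methods name TopHat and Cufflinks, whereas the submitters' processing notes list HISAT2 2.2.1.0, Cufflinks and the build hg19, so the RNA aligner is unsure. An exact 0 can be a failed estimate. No column of the table was left unused.

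The 90 entries with repeated names were removed from 25594. Values were analysed as log2(FPKM + 1) over 10865 genes with a mean FPKM of at least 1. Each inhibitor was set against DMSO of the same day at a 2-fold threshold, with no test. Days and treatments were tested with limma 3.58.1 (R 4.3.3) in 1 additive model with an intensity trend and 3 residual degrees of freedom, and p-values were adjusted by Benjamini-Hochberg over all 10865 genes at 0.05. The labels do not say that libraries came from separate cultures, so p-values measure only the spread between these libraries, here the departure of treatments from a shared day difference.

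Transcript GC content, coding length and GRCh37 positions came from GENCODE 44 lifted to GRCh37, and promoter windows from RefSeq. Positions are those of the whole gene record, whereas exon counts, lengths and GC content are those of 1 transcript a gene. Depth was estimated from the FPKM that 1 fragment gives, and 95% half-widths from it, taking the coding length as the shortest likely transcript. Named were the 10 members, the 3 genes of each list with the largest day difference and any list gene changed 2-fold. GAPDH and HIF1A on the days were named after their values were seen. Members, lists and tests were chosen with earlier results of these data known. The fit was also run on simulated data with noise independent between genes and libraries. Those data lacked the relation to GC content seen here, so they cannot check the fit in its presence. The alternatives were a pseudocount of 0.1, rescaled libraries, other filters, GC correction, the other day's DMSO, no treatment block, leaving out each library and, chosen after seeing the data, genes with a transcript only. Python 3.11.15 was used elsewhere.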

Additional observations from a re-analysis of the deposited data

Results flagged for a closer look

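LDHA with NCD38 moved in opposite directions on the days. Its log2 ratio of FPKM + 1 against DMSO was 0.49 on day 30 (209 against 149 FPKM) and -0.68 on day 4 (153 against 247 FPKM). Each value rests on 1 library a condition, the DMSO library differs between the days, and the difference between the ratios was not tested. The NCD38 library of day 4 also had the lowest median log2(FPKM + 1), 2.71. With the median of GC bins subtracted, the ratios were 0.39 and -0.15.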

How the results depend on the processing

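With DMSO taken from the other day, 4 of the 8 members (NCD38), 3 (NCD38-β2P4) and 3 (NCD38-β2PIPP) passed 2-fold for day 30, and 4, 3 and 2 for day 4, where 0 had passed, because this setting adds the day difference. With a pseudocount of 0.1, 1 member passed for NCD38-β2PIPP on day 4. The remaining alternatives to these comparisons gave 0 members, but single ratios moved. With libraries rescaled by median ratio, NCD38 on day 4 gave 0.06 for NDRG1 and 0.20 for ADM, where the main values were -0.32 and -0.14. For the days, 6 members passed, and 3 to 6 when 1 library was left out, with 3 without either DMSO library. Leaving out either library of a treatment gives the same fitted day differences by construction, so the 2 omissions are not separate checks. The other alternatives gave 5 to 7. The 5 was out of 7 members tested, since PDK1 did not reach 1 FPKM in all 8 libraries. With no filter on low FPKM it was 6 of 10. PDK1 was reversed by the subtraction of GC bin medians, to -0.50. Over all expressed genes, 6722 passed between the days, and 4567 to 7827 under the alternatives. The 2-fold counts over all genes were 180, 109 and 127 on day 30 and 588, 208 and 1213 on day 4, and across alternatives they ran from 57 to 4493, 11 to 4721, 11 to 4623, 30 to 5734, 25 to 3939 and 98 to 3276. Between treatments 0 to 27 genes passed and 0 members. The days were compared within treatments, and without the treatment block 6 members also passed. With no filter on low FPKM, PDK1 no longer passed between the days (adjusted p = 0.0637 in limma). Depth limited BNIP3 and CA9, whose day 4 levels lay under that of 3 fragments, and 1 library a condition limits every comparison with DMSO.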
